A study of Danio rerio with 12 samples.

Results

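The livers of adult zebrafish were compared for how the response to bisphenol AF (BPAF) differed between the sexes. For each gene the difference was the response of females (BPAF-exposed females minus DMSO females) minus the response of males (BPAF-exposed males minus DMSO males), on the log2(TPM + 1) scale, where TPM (transcript abundance) is a level relative to gene length and library total. A positive difference means that the female response lay above the male response. All genes with at least 1 TPM in at least 3 libraries entered, which were 11389 of the 32520 listed genes, and all 12 of 12 libraries were used. The 4 groups of 3 libraries were females at 10 µg/L BPAF, females in 0.0001% of the solvent dimethyl sulfoxide (DMSO), males at 10 µg/L BPAF and males in 0.0001% DMSO. All fish were wild type of the TU strain, 4 months old, held at 28 °C and exposed for 28 days before the liver was dissected, and the stated purpose was to find sex-differentiated liver effects. No solvent level was found for the exposed fish, so a solvent difference cannot be told apart from BPAF. Whether the 3 libraries of a group were single fish or pools is not stated, so each p-value reflects the spread among these libraries alone, which may be technical.

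BPAF is a fluorinated relative of bisphenol A that can bind estrogen receptors. In egg-laying fish, estrogen acts on the female liver through such receptors to make vitellogenins, the egg yolk precursors, and the male liver makes little of them unless it meets an estrogen. The liver also makes cholesterol, bile acids and plasma proteins, releases glucose, and clears foreign compounds by oxidation and by conjugation to sulfate, glucuronic acid or glutathione.

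The 7 vitellogenin genes took 19.5% to 25.7% of all TPM in BPAF females, 22.5% to 23.2% in DMSO females, 0.00115% to 0.00489% in BPAF males and 0.0024% to 0.0108% in DMSO males. Every library thus sat with its labelled sex, and the hepatocyte marker fabp10a, a liver fatty acid binding protein, was at 19715 TPM or more in all 12. Genes at 1 TPM or more numbered 9217, 7506 and 7007 in BPAF females and 7750, 8085 and 8165 in DMSO females. They numbered 12313, 10198 and 10373 in BPAF males and 9952, 9842 and 9108 in DMSO males. The BPAF males lay above the DMSO males in all libraries, while the groups of females overlapped, and the difference of responses was -1417 genes (exact two-sided permutation test of treatment within each sex, p = 0.215, where 0.005 is the smallest p that 400 relabellings allow, and the replicate numbers were not used). Because a bulk sample mixes cells, fewer cells of a type and less RNA per cell cannot be told apart in any result here.

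No gene passed the test of a difference between female and male responses. At a Benjamini-Hochberg adjusted p under 0.05 in limma, 0 of 11389 genes were called, or 0%, and the smallest adjusted p was 0.163. An unadjusted p under 0.05 was reached by 46 genes with a higher female response (0.404%) and by 322 with a lower one (2.83%), 368 in all. With a replicate block within each sex these were 75 higher and 578 lower, with 0 called. The number of lower genes was 715 without female BPAF 1, 524 without male BPAF 2 and 187 without female BPAF 3. The number of higher genes was 84 without male BPAF 1 and 74 without male DMSO 3. If no gene differed, a share of about 0.05 would still reach such a p. In the fit with no block the share ran from 3.84% of genes with a mean under 2 TPM to 1.57% of those over 100 TPM. The counts of that fit are thus no excess over the threshold. The interval of a single difference was wide: its median standard error was 0.46 and the median 95% interval reached 0.997 log2 units to each side, so 1949 genes (17.1%) had an interval that stayed within 1 log2 unit of no difference.

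Most single differences were negative. The median over all tested genes was -0.25, with 8717 genes below 0 and 2672 above, and the middle 90% ran from -1.07 to 0.48. The median female response was -0.01 and the median male response 0.24. This shift depended on scaling: the median difference was 0.01 after trimmed-mean scaling and 0.0071 after quantile normalization, and the genes at an unadjusted p under 0.05 were then 133 higher and 145 lower, and 131 higher and 136 lower, with 0 called in both. List medians are therefore to be read against these medians of all tested genes. The median difference also varied with level, at -0.27 for genes with a mean under 2 TPM and -0.08 for those over 100 TPM. After trimmed-mean scaling these were -0.07 and 0.29. Sign counts of lists are to be read against the 76.5% of all tested genes with a negative difference in the deposited TPM. After trimmed-mean scaling 5523 genes were negative and 5866 positive, and after quantile normalization 5607 and 5782.

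Within one sex, the same model called 0 genes in females (0%; limma, smallest adjusted p = 0.869, with 157 genes at an unadjusted p under 0.05) and 6 in males (0.0527%), 5 higher and 1 lower. With a replicate block within each sex the male count was 2, and it was 0 without male DMSO 1 or male DMSO 2. Across the 11389 genes the female and male responses, which share no library, had a Pearson r of -0.01 and a Spearman rho of 0.04, given as a description because genes are not independent. Both responses were positive in 4388 genes and both negative in 1187. The female response was positive and the male negative in 1054 genes, and the reverse held in 4718. These counts depended on scaling: after trimmed-mean scaling both were positive in 2904 genes and both negative in 2763, the female alone was positive in 3020 and the male alone in 2663, and after quantile normalization the counts for a single positive sex were 2983 and 2592. At an unadjusted p under 0.05, 672 genes were higher and 50 lower in BPAF males in the deposited TPM, against 193 and 141 after trimmed-mean scaling and 216 and 150 after quantile normalization. Of the 672 higher genes, the female response was positive in 333 and negative in 327, with a median of 0. A gene at 1 TPM or more only in the BPAF males entered through that group, and how many of the 672 did so was not counted. Of the 90 genes lower in BPAF females at that level, the male response was positive in 57 and negative in 31, with a median of 0.12. Of the 67 genes higher in BPAF females, it was positive in 45 and negative in 22, with a median of 0.21. Over all tested genes the male response was positive in 9132 and negative in 2251, with a median of 0.24.

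**Figure D1:**
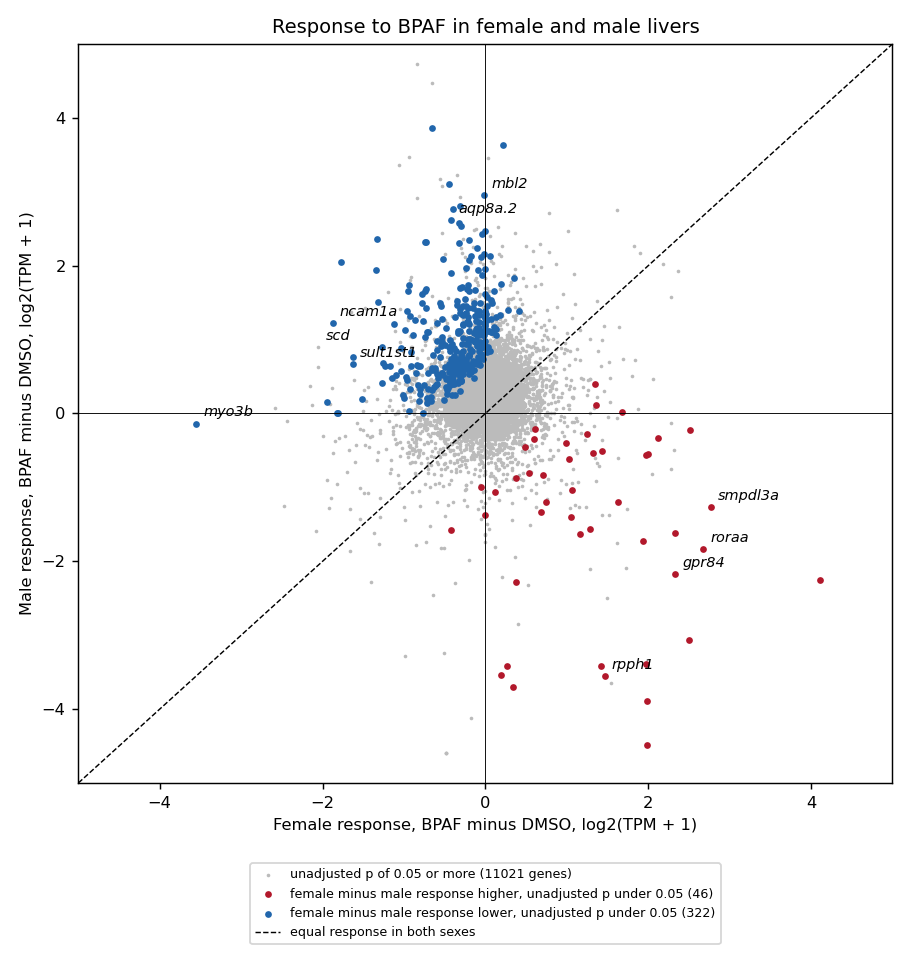
Female response (x axis) against male response (y axis), BPAF minus DMSO in log2(TPM + 1), for each tested gene; blue and red points are the 322 and 46 genes with an unadjusted p under 0.05 for the difference, and 2 genes lie outside the axes. The blue points lie mainly above 0 on the male axis and below 0 on the female axis, with a female median of -0.31. The red points lie mainly below 0 for males and above 0 for females.

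The 46 genes with a higher female response mostly pointed opposite ways in the sexes: 39 had a positive female and a negative male response, with medians of 1.26 in females and -1.23 in males. The 322 genes with a lower female response leaned on the male side: their median response was -0.31 in females and 0.90 in males, and the male response was the larger in size in 258 of them. A negative female with a positive male response was seen in 286. These genes were selected by the difference itself, so the directions describe the selection and support nothing.

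Among the genes with a higher female response, smpdl3a, which encodes an acid sphingomyelinase-like phosphodiesterase, had 22.04, 13.49 and 4.85 TPM in BPAF females and 0.59, 0.81 and 1.16 TPM in DMSO females. It had 29.95, 80.26 and 16.28 TPM in BPAF males and 44.97, 93.44 and 137.95 TPM in DMSO males. The BPAF females all lay above the DMSO females, while the groups of males overlapped, and the difference of responses was 4.03 ± 0.87 log2 units (SE; limma adjusted p = 0.768). DMSO females were the low group for this gene.

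EIF3J, a subunit of the translation initiation factor complex eIF3, stood at 0.31, 1.73 and 0.94 TPM in BPAF females and at 0.46, 0 and 0 TPM in DMSO females, against 1.85, 2.5 and 2.63 TPM in BPAF males and 5.32, 6.66 and 8.03 TPM in DMSO males. All BPAF males were below all DMSO males, the females overlapped at low levels, and the difference was 1.95 ± 0.41 (SE; limma adjusted p = 0.768). The nuclear receptor gene roraa, an orphan receptor that binds clock gene promoters in mammals, had 99.39, 26.04 and 77.83 TPM in BPAF females and 6.39, 7.52 and 11.98 TPM in DMSO females. It had 12.57, 136.85 and 35.63 TPM in BPAF males and 43.92, 137.2 and 502.44 TPM in DMSO males. The females did not overlap, the males did, with a spread of over 10-fold within each male group, and the difference was 4.51 ± 1.3 (SE; limma adjusted p = 0.995).

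Several other higher genes were at or near 0 in some groups or varied widely. For dnd1, which encodes a germ cell RNA-binding protein, BPAF females were at 9.73, 8.56 and 8.7 TPM and DMSO females at 1.21, 4.31 and 0.04 TPM, whereas BPAF males were at 10.95, 24.89 and 9.38 TPM and DMSO males at 14.6, 42.03 and 8.66 TPM. Here the females did not overlap and the males did, and the difference was 2.45 ± 0.88 (SE; limma adjusted p = 0.995). For gpr84, a receptor for medium-chain fatty acids on myeloid cells of mammals, the difference was 4.50 ± 1.68, with DMSO males between 27.33 and 260.35 TPM. The retinoic acid binding protein gene crabp1a had a difference of 2.65 ± 0.84 and was listed at 0 in 1 BPAF female, 2 DMSO females and 2 BPAF males. The gene soga3a was listed at 0 in all libraries but the DMSO males, which had 1, 2.99 and 1.21 TPM, and it passed the filter through that group.

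The genes with a lower female response were led, among those with a descriptive symbol, by ncam1a, a neural cell adhesion molecule. It had 1.33, 0.4 and 1.89 TPM in BPAF females and 7.75, 9.97 and 3.87 TPM in DMSO females. In males it had 5.64, 2.03 and 1.85 TPM with BPAF and 0.67, 0.38 and 0.96 TPM with DMSO. Neither sex overlapped, and the directions were opposite: BPAF females were the lower female group and BPAF males the higher male group. The difference was -3.10 ± 0.58 (SE; limma adjusted p = 0.499).

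A second gene of this kind was sult1st1, a cytosolic sulfotransferase of the family that conjugates phenols and steroids. BPAF females had 1.21, 0.85 and 0.49 TPM and DMSO females 1.58, 6.76 and 7.98 TPM. BPAF males had 3.4, 5.48 and 3.81 TPM and DMSO males 2.14, 2.7 and 1.93 TPM. Again neither sex overlapped, with a difference of -2.30 ± 0.57 (SE; limma adjusted p = 0.995).

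For myo3b, an unconventional myosin, the female side carried the difference. BPAF females had 5.25, 1.7 and 0 TPM and DMSO females 35.36, 26.08 and 26.86 TPM, while BPAF males had 23.58, 10.19 and 17.64 TPM and DMSO males 27.18, 8.22 and 25.28 TPM. The females stood well apart and the males overlapped fully, with a difference of -3.42 ± 0.86 (SE; limma adjusted p = 0.995). For aqp8a.2, an aquaporin, BPAF males had 13.33, 7.86 and 21.77 TPM and DMSO males 0.61, 0.44 and 4.37 TPM. The female libraries lay at 0.47 TPM or less with BPAF and at 2.24 TPM or less with DMSO. Outside the BPAF males aqp8a.2 reached 1 TPM only in DMSO female 2 and DMSO male 3. It thus passed the filter through the group where it was high, and its separation is not read. Its difference was -3.04 ± 0.80 (SE; limma adjusted p = 0.995).

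At high levels, mt-nd4l, a mitochondrially encoded subunit of respiratory complex I, had 818.43, 530.87 and 673.27 TPM in BPAF females and 907.8, 593.73 and 767.09 TPM in DMSO females. BPAF males had 1269.13, 1093.08 and 1505.48 TPM and DMSO males 674.34, 631.38 and 621.05 TPM. The females overlapped and the males did not, and the difference was -1.16 ± 0.32 (SE; limma adjusted p = 0.995). The mitotic checkpoint kinase gene ttk had a difference of -1.47 ± 0.34, the glutathione transferase gene gstp2 of -1.06 ± 0.25, the carbonic anhydrase gene ca4b of -1.49 ± 0.39 and the myosin heavy chain gene myhb of -0.97 ± 0.26 (SE; limma adjusted p = 0.995 for each). BPAF males had 1.01 to 3.53 TPM in these 4 genes. Outside the BPAF males, gstp2, ca4b and myhb reached 1 TPM in no library, and ttk only in DMSO female 1. All 4 genes thus passed the filter through the BPAF males, and their separation is not read.

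**Figure D2:**
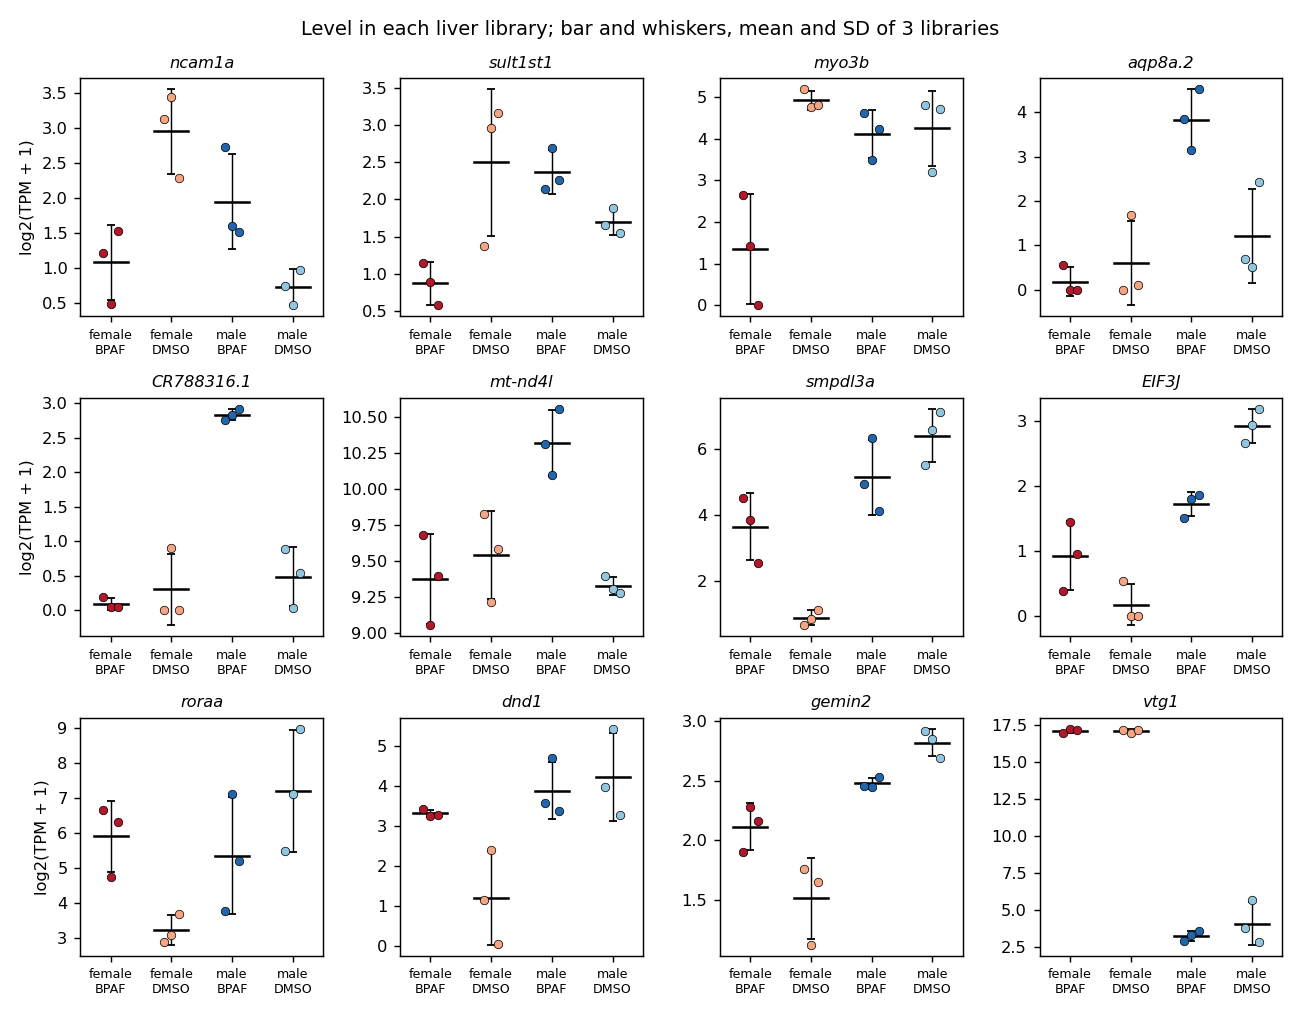
Level of 12 genes in each library as log2(TPM + 1), with the mean and SD of 3 libraries per group. In ncam1a and sult1st1 the BPAF females lie below the DMSO females and the BPAF males above the DMSO males; in gemin2 the directions are turned round, and in vtg1 the female groups lie together.

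Genes in which neither sex overlapped and the directions were opposite were few. Females with BPAF above and males with BPAF below their controls were seen in 2 genes (0.0176%), gemin2, which takes part in spliceosomal snRNP assembly, and kdm5a, a histone H3 lysine 4 demethylase. For gemin2, BPAF females had 2.73, 3.86 and 3.49 TPM, DMSO females 2.39, 1.18 and 2.15 TPM, BPAF males 4.5, 4.45 and 4.78 TPM and DMSO males 6.55, 6.22 and 5.46 TPM, with a difference of 0.94 ± 0.33 (SE). The reverse pattern was seen in 14 genes (0.123%), among them ncam1a, sult1st1, gkap1, a kinase anchoring protein, synj2bp, a protein of the outer mitochondrial membrane, and sesn1, a p53-responsive inhibitor of TORC1. For sesn1, BPAF females had 3.76, 3.75 and 1.61 TPM, DMSO females 4.36, 6.53 and 7.34 TPM, BPAF males 9.73, 8.06 and 11.39 TPM and DMSO males 7.44, 7.1 and 3.51 TPM, with a difference of -1.49 ± 0.47 (SE). By comparison, BPAF lay above the controls in both sexes in 27 genes and below in both in 2. Whatever the other sex did, all BPAF females lay above all DMSO females in 268 genes and below them in 242. All BPAF males lay above all DMSO males in 1106 genes and below them in 64. A gene at 1 TPM or more only in the 3 libraries of 1 group passed the filter through that group and had to separate there. How many genes did so was not counted. All these counts are from the deposited TPM, where the median male response was 0.24. That median was -0.0053 after trimmed-mean scaling, and no such counts are given after scaling. Whether any pattern across the sexes was more frequent than these counts alone would give was not tested.

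Of the 6 genes called in males, the 5 that rose had low levels and clone-based symbols. CR788316.1 had 0.14, 0.03 and 0.03 TPM in BPAF females and 0, 0.86 and 0 TPM in DMSO females, against 5.74, 6.06 and 6.53 TPM in BPAF males and 0.85, 0.02 and 0.45 TPM in DMSO males. The females overlapped near 0, and the difference was -2.55 ± 0.40 (SE; limma adjusted p = 0.237). The differences were -1.95 ± 0.35 for si:ch73-167f10.1, -1.56 ± 0.32 for si:dkey-26m3.3, -1.48 ± 0.37 for si:ch211-261n11.7, which the name table lists as tnfrsf14, and -1.18 ± 0.24 for si:ch211-160o17.3 (SE; limma adjusted p from 0.433 to 0.995). Outside the BPAF males, the 5 genes that rose reached 1 TPM in no library, except si:ch211-261n11.7 in BPAF female 1. All 5 thus passed the filter through the group where they were high, and their separation is not read. Those with no other library at 1 TPM had to differ. The gene that fell, FO704772.1, is a 5.8S ribosomal RNA copy in the name table: it was listed at 0 in all BPAF libraries of both sexes and at 0, 0 and 0.07 TPM in DMSO females, and it had 122.72, 771.79 and 6079.65 TPM in DMSO males, the group through which it passed the filter. Such near-identical copies can share reads, so its level is uncertain. Its difference of 9.67 ± 1.37 had the smallest adjusted p of all tested genes (SE; limma adjusted p = 0.163).

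Estrogen-responsive genes had similar levels in the BPAF and DMSO females, and no member was called, as no tested gene was. All 10 tested members of 12 listed had a positive difference, with a median of 0.32 beside -0.25 for all tested genes, and the median without male DMSO 2 was 0.06. The female median was 0.08 and the male median -0.30. For vtg1, BPAF females had 122514, 149212 and 140287 TPM and DMSO females 142423, 124915 and 146342 TPM, while BPAF males had 6.47, 8.61 and 10.99 TPM and DMSO males 12.74, 48.57 and 5.92 TPM. Both sexes overlapped, and the difference was 0.81 ± 0.74 (SE, 95% interval from -0.80 to 2.42; limma adjusted p = 0.995). In males, 48.57 TPM of DMSO replicate 2 stood above the rest, and without it the vtg1 difference was 0.03. The receptor gene esr1 had 28.43, 30.64 and 23.02 TPM in BPAF females, 21.25, 26.56 and 27.09 TPM in DMSO females, 0.55, 0.52 and 0.42 TPM in BPAF males and 0.55, 0.6 and 0.19 TPM in DMSO males. It overlapped in both sexes, with a difference of 0.07 ± 0.32 (SE, 95% interval from -0.63 to 0.76). The coactivator gene greb1, an estrogen target in mammals, had the smallest p of the list at 0.0967, with a difference of 1.21 ± 0.67 (SE).

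The genes of cholesterol synthesis all had a negative difference: 22 of 22 tested members of 28 listed, with a median of -0.82 beside -0.25 for all tested genes. The response was negative in 22 of 22 in females, with a median of -0.45, and positive in 20 of 22 in males, with a median of 0.41. Over all tested genes the female response was negative in 51.9% and the male response in 19.8%, so the male count lay near the share of all genes. No member was called, as no tested gene was. An unadjusted p under 0.05 was reached by 4 members, sc5d, insig1, msmo1 and dhcr7. Of all tested genes, 2.83% reached it with a lower female response. After trimmed-mean scaling the median was -0.58 with 20 negative members, after quantile normalization -0.53 with 21, and with single libraries left out it ran from -1.04 to -0.66. Members of the list share their regulation, so they are not independent.

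Of the enzymes, msmo1, a sterol C4-methyl oxidase, had 7.68, 6.66 and 11.88 TPM in BPAF females, 13.8, 20.73 and 16.67 TPM in DMSO females, 16.76, 13.34 and 30.23 TPM in BPAF males and 23.2, 8.97 and 7.73 TPM in DMSO males. The BPAF females lay below all DMSO females, the males overlapped, and the difference was -1.55 ± 0.59 (SE; limma adjusted p = 0.995). The gene insig1, a brake on SREBP activation, had 9.78, 7.15 and 9.09 TPM in BPAF females, 11.15, 19.12 and 50.21 TPM in DMSO females, 6.64, 2.14 and 4.96 TPM in BPAF males and 2.78, 4.08 and 2.14 TPM in DMSO males. It too was lower in all BPAF females than in all DMSO females and overlapped in males, with a difference of -1.69 ± 0.68 (SE). The rate-limiting reductase gene hmgcra had 5.68, 2.33 and 11.51 TPM in BPAF females, 6.07, 10.97 and 7.74 TPM in DMSO females, 16.47, 0.69 and 3.11 TPM in BPAF males and 2.69, 0.85 and 0.38 TPM in DMSO males, overlapped in both sexes and had a difference of -1.70 ± 1.04 (SE). The difference was -1.98 ± 0.93 for cyp51, the lanosterol demethylase, and -1.59 ± 0.78 for hmgcs1, which makes HMG-CoA (SE).

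**Figure D3:**
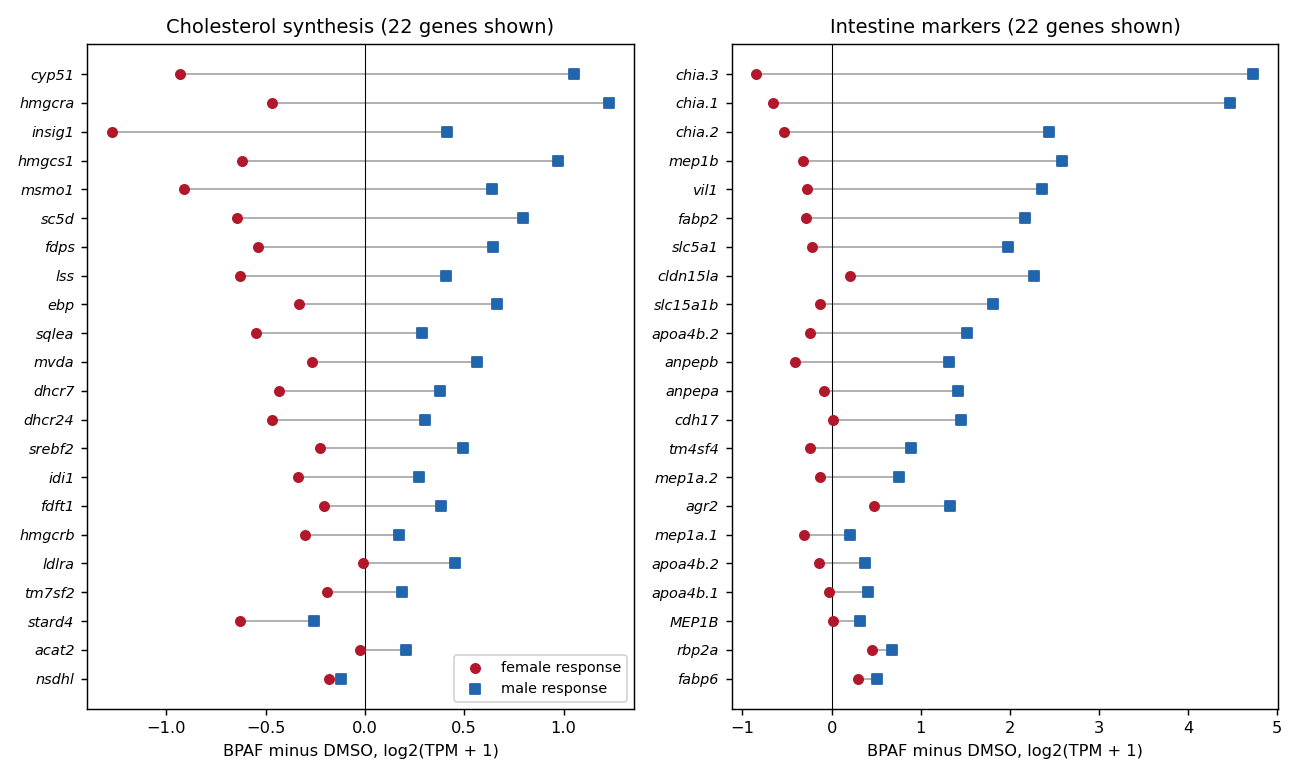
Female (red circles) and male (blue squares) response, BPAF minus DMSO in log2(TPM + 1), for the 22 tested genes of cholesterol synthesis and 22 of the 23 tested intestine markers, each ordered by the difference. For cholesterol synthesis the red points lie below 0 and most blue points above it, and for the intestine markers the red points lie near 0 and the blue points above it, up to 4.73 for chia.3.

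Fatty acid and glucose genes spread to both sides. The list of fatty acid and triglyceride synthesis had 8 positive and 14 negative members of 22, with a median of -0.28. It was 0.05 after trimmed-mean scaling, with 12 positive and 10 negative members, and ran from -0.63 without male DMSO 1 to 0.10 without male DMSO 3. The desaturase gene scd had 15.46, 2.25 and 18.16 TPM in BPAF females, 28.9, 62.61 and 37.4 TPM in DMSO females, 0.38, 16.65 and 0.7 TPM in BPAF males and 0.13, 3.78 and 0.19 TPM in DMSO males. BPAF females were below all DMSO females, the males overlapped, and the difference was -2.95 ± 1.36 (SE; limma adjusted p = 0.995). In contrast fasn, the fatty acid synthase, had a difference of 0.32 ± 1.39, which was -1.05 without male DMSO 2. The list of glucose and glycogen genes had 7 positive and 23 negative members of 30, about the share over all tested genes (76.5% negative). Its median of -0.44 was -0.11 after trimmed-mean scaling (11 positive and 19 negative) and -0.34 after quantile normalization. The gluconeogenic enzyme gene pck1 had 25.48, 0.58 and 9.43 TPM in BPAF females, 29.27, 23.78 and 50 TPM in DMSO females, 195.81, 53.92 and 170.04 TPM in BPAF males and 178.64, 92.02 and 50.58 TPM in DMSO males, overlapped in both sexes and had a difference of -2.52 ± 1.24 (SE). Fatty acid oxidation had a median of -0.11 over 35 genes, which was 0.26 after trimmed-mean scaling, and its gatekeeper cpt1aa had a difference of -0.26 ± 0.60 (SE), which was 0.29 without male BPAF 1.

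The genes of amino acid breakdown had 2 positive and 42 negative members of 44, with a median of -0.47, and 3 members at an unadjusted p under 0.05: bckdhb, of the branched-chain keto acid dehydrogenase, kynu, of tryptophan breakdown, and got2a, the mitochondrial aspartate aminotransferase. After trimmed-mean scaling the median was -0.11 (14 positive and 30 negative) and after quantile normalization -0.33 (6 and 38). For bckdhb, BPAF females had 11.59, 6.59 and 33.69 TPM, DMSO females 16.71, 33.13 and 45.88 TPM, BPAF males 30.41, 22.12 and 46.29 TPM and DMSO males 24.51, 11.21 and 16.64 TPM. Both sexes overlapped, and the difference was -1.91 ± 0.78 (SE).

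Genes of the circadian clock had 2 positive and 25 negative members of 27, with a median of -0.66, a female median of -0.42 and a male median of 0.16. The median was -0.37 after trimmed-mean scaling (7 positive and 20 negative) and -0.47 after quantile normalization (9 and 18). It ran from -0.72 to -0.38 with single libraries left out. The gene roraa, described above with a difference of 4.51 ± 1.3 (SE), was in neither this list nor that of nuclear receptors. The transcription factor gene tefa, which drives clock output, had 5.9, 10.16 and 9.75 TPM in BPAF females, 15.75, 17.13 and 20.95 TPM in DMSO females, 8.99, 18.07 and 17.01 TPM in BPAF males and 16.26, 16.49 and 6.44 TPM in DMSO males. The females did not overlap, the males did, and the difference was -1.21 ± 0.54 (SE; limma adjusted p = 0.995). For the repressor bhlhe40 the difference was -1.28 ± 0.65, with 106.5 TPM in DMSO female 3 and 13.26 to 43.86 TPM in every other female library. The hour of dissection of each fish is not given in the labels, and its part in this result was not tested. The immediate early genes, which respond quickly to handling, had 1 positive and 20 negative members of 21, with a median of -0.49, which was -0.20 without female DMSO 3 and -0.87 without female BPAF 1.

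Enzymes that clear foreign compounds lay near the median of all genes, and 76.5% of all tested genes had a negative difference. The CYP1 to CYP3 oxidases had a median of -0.31 (9 positive and 31 negative of 40), the UDP-glucuronosyltransferases -0.13 (6 and 13 of 19), the sulfotransferases -0.35 (2 and 8 of 10) and the glutathione S-transferases -0.26 (2 and 19 of 21). After trimmed-mean scaling the CYP1 to CYP3 median was -0.03 (16 positive and 24 negative), the UDP-glucuronosyltransferase median 0.15 (12 and 7), the sulfotransferase median -0.04 (5 and 5) and the glutathione S-transferase median 0.10 (12 and 9). The gene cyp1a, a target of the aryl hydrocarbon receptor, had 69.13, 50.53 and 66.91 TPM in BPAF females, 64.23, 104.44 and 132.13 TPM in DMSO females, 157.81, 138.62 and 126.37 TPM in BPAF males and 183.1, 125.88 and 87.17 TPM in DMSO males. It overlapped in both sexes, with a difference of -0.79 ± 0.46 (SE, 95% interval from -1.80 to 0.23). The xenobiotic oxidase gene cyp3a65 had a difference of -0.84 ± 0.61, and ugt1a1, a bilirubin-conjugating enzyme in mammals, of -0.69 ± 0.42 (SE). Bile acid genes had a median of -0.15 over 18 genes, and the rate-limiting enzyme gene cyp7a1 a difference of -0.48 ± 1.59 (SE), whose 95% interval from -3.96 to 2.99 spans a wide range in both directions.

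Among stress, immune and growth genes, the endoplasmic reticulum stress list had 23 positive and 13 negative members of 36 and a median of 0.12, which was 0.43 after trimmed-mean scaling, -0.27 without male BPAF 3 and 0.72 without male BPAF 1. The chaperone gene hspa5 shows the spread behind it, with 98.92, 26.1 and 71.94 TPM in BPAF females, 43.42, 110.79 and 32.02 TPM in DMSO females, 499.38, 18.16 and 11.03 TPM in BPAF males and 75.51, 21.77 and 201.46 TPM in DMSO males. It overlapped in both sexes, and its difference was 0.63 ± 1.73 (SE), which was -0.38 without male BPAF 3. The p53 and apoptosis list had a median of -0.49 (2 positive and 29 negative of 31), and the interferon and antigen presentation list -0.49 (2 and 28 of 30). After trimmed-mean scaling these medians were -0.22 (8 positive and 23 negative) and -0.15 (9 and 21), and the interferon median was -0.25 without female BPAF 3. The cell cycle list had -0.65 (2 and 28 of 30), and without female BPAF 1 it was -1.21 and without female BPAF 2 -0.30. Its median was -0.51 after trimmed-mean scaling and -0.41 after quantile normalization. Its summed TPM was 183.37, 25.47 and 30.42 in BPAF females and 173.55, 73.45 and 27.86 in DMSO females. The highest library of each female group was also the highest in ovary and oocyte markers, and a link was not tested. The topoisomerase gene top2a had the smallest p of the cell cycle list, with a difference of -0.94 ± 0.43 (SE). BPAF males had 2.64, 1.21 and 1.32 TPM and DMSO males 0.3, 0.47 and 0.77 TPM. Outside the BPAF males top2a reached 1 TPM only in BPAF female 1 and DMSO female 1. It thus passed the filter through the group where it was high, and its separation is not read.

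The lists of large complexes had medians above the -0.25 of all tested genes in the deposited TPM. Genes with a mean over 100 TPM had a median of -0.08, or 0.29 after trimmed-mean scaling, and no list was compared at matched level. The 84 cytosolic ribosomal protein genes had 41 positive and 43 negative members and a median of -0.0026, and 77 lay above the all-gene median. Their median was 0.37 after trimmed-mean scaling (81 positive and 3 negative), where that of all genes was 0.01. After quantile normalization it was -0.07 (36 positive and 48 negative). Oxidative phosphorylation had a median of -0.19 over 84 genes and the proteasome -0.11 over 44, which were 0.17 and 0.24 after trimmed-mean scaling. After quantile normalization they were 0.01 and 0.09, beside 0.0071 for all tested genes. The plasma protein list had a median of -0.15 over 59 genes, heat shock proteins -0.30 over 17, antioxidant defence -0.24 over 35, nuclear receptors -0.23 over 27 and the growth hormone, IGF and thyroid axes -0.29 over 19. In the last list the thyroid hormone deiodinase gene dio3b had a difference of 0.93 ± 0.42 (SE), with 2.27, 1.68 and 3.89 TPM in BPAF males and 9.69, 4.08 and 5.2 TPM in DMSO males, which did not overlap, and 0.14 TPM or less in every female library. Of the 25 pathway lists, 14 had a median below that of all genes in the deposited TPM, 10 after trimmed-mean scaling and 18 after quantile normalization.

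**Figure D4:**
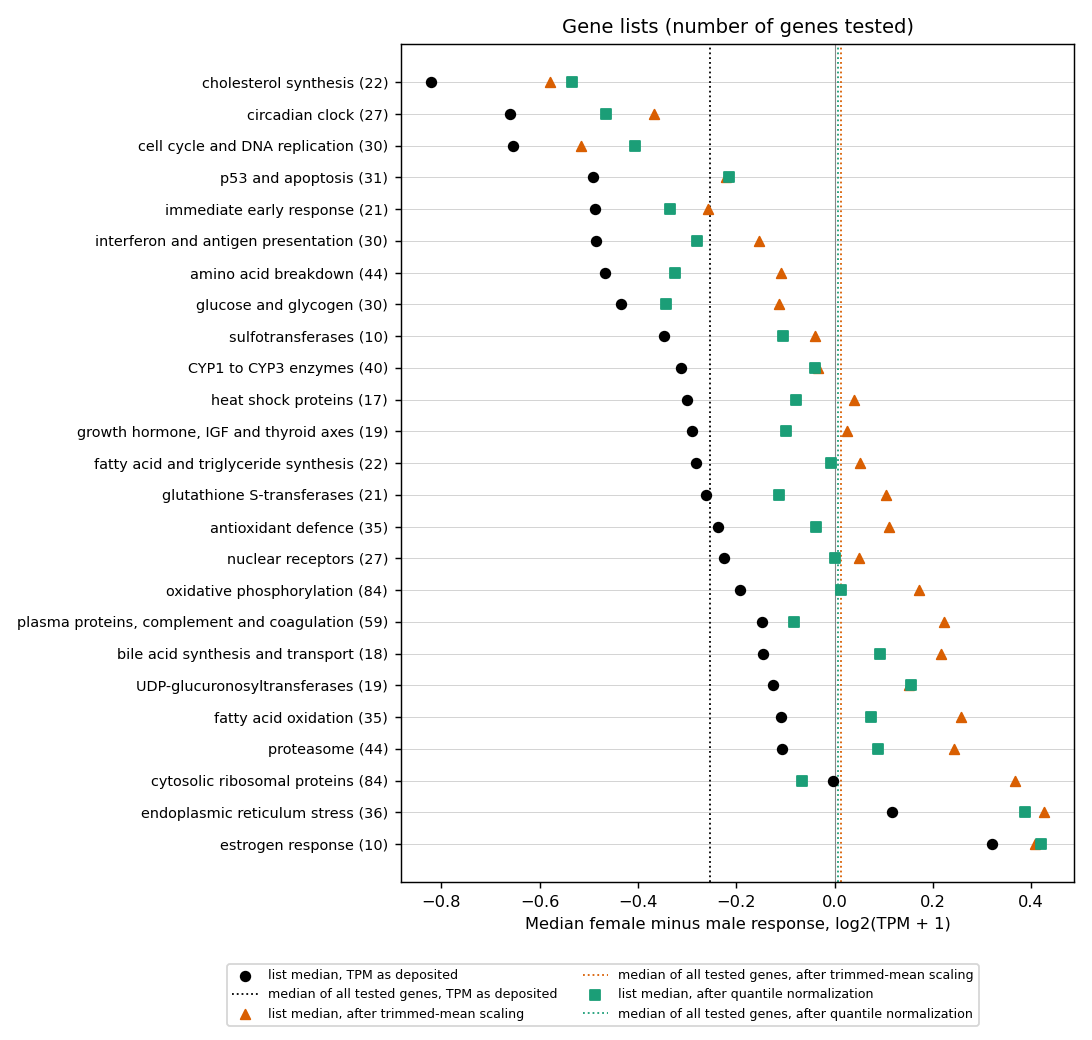
Median female minus male response, in log2(TPM + 1), of 25 gene lists in the deposited TPM (black), after trimmed-mean scaling (orange) and after quantile normalization (green); dotted lines are the medians of all tested genes. Cholesterol synthesis lies lowest, at -0.82, and estrogen response highest, at 0.32, in the deposited TPM; the number of genes tested stands in brackets.

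No marker of another cell type was called for the difference, as none of the 11389 tested genes was. All 23 tested intestine markers of 25 listed had a negative difference, with a median of -1.73, a female median of -0.22 and a male median of 1.45. Those with an unadjusted p under 0.05 included mep1b and cdh17, with differences of -2.91 ± 1.11 and -1.44 ± 0.63 (SE; limma adjusted p = 0.995 for each). The median was -1.39 after trimmed-mean scaling and -1.42 after quantile normalization, and it was -1.04 without male BPAF 3 and -2.44 without male BPAF 2. The summed TPM of the list was 1074 to 2089 in BPAF females and 996 to 1734 in DMSO females, and 4787 to 11125 in BPAF males and 3522 to 3670 in DMSO males. The BPAF males thus lay above the DMSO males and the females overlapped. Within this sum the apolipoprotein gene apoa4b.1 was at 1190 to 1420 TPM in BPAF males and 723 to 1099 TPM in DMSO males.

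The defining markers were low in females and uneven in males. The brush border gene vil1 had 2.33, 0 and 0.2 TPM in BPAF females, 0.09, 5.07 and 0.07 TPM in DMSO females, 14.91, 7.29 and 50.81 TPM in BPAF males and 1.68, 0.33 and 13 TPM in DMSO males. The intestinal fatty acid binding protein gene fabp2 had 21.08, 6.41 and 2.02 TPM in BPAF females, 2.86, 34.19 and 5.59 TPM in DMSO females, 238.37, 103.07 and 371.93 TPM in BPAF males and 83.18, 10.67 and 101.37 TPM in DMSO males. For both genes the female groups overlapped, and DMSO male 3 reached the lower part of the range of vil1 in BPAF males. None of the 25 listed markers was at 0 in all 12 libraries. The part of intestinal RNA in the differences of other genes was not tested. In mbl2, a mannose-binding lectin, every BPAF male lay above all other libraries. The same held in aqp8a.2, which passed the filter through the BPAF males, so its separation is not read.

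Exocrine pancreas markers pointed the other way. Of 24 tested genes, 23 had a positive difference, with a median of 0.61, a female median of 0.13 and a male median of -0.64, and without female DMSO 1 the median was 0.16. Their summed TPM was 548 to 911 in BPAF females, 448 to 998 in DMSO females, 391 to 802 in BPAF males and 312 to 959 in DMSO males, so both sexes overlapped. Ovary and oocyte markers summed to 13.5 to 879 TPM in BPAF females and 66.9 to 721 TPM in DMSO females, against 2.28 to 8.97 TPM in BPAF males and 0.77 to 56.4 TPM in DMSO males. Their median difference of -0.30 over 21 genes was 0.58 without female BPAF 2 and -1.60 without female BPAF 1. Leukocyte markers had a median of -0.34 over 24 genes, which was -0.87 without female BPAF 1, 0.01 without female BPAF 3 and -0.07 after trimmed-mean scaling, and their sum was 286 to 970 TPM in BPAF females, 244 to 446 TPM in DMSO females, 1161 to 2543 TPM in BPAF males and 532 to 1235 TPM in DMSO males. Hepatocyte markers had a median of -0.02 over 22 genes, fibroblast and stellate cell markers -0.24 over 13, endothelial markers -0.08 over 10, bile duct markers -0.33 over 8, red cell markers 0.12 over 13 and adipose markers -0.49 over 3. Only 2 of 27 listed testis markers and 1 of 21 listed skeletal muscle markers passed the filter, so no median is read from them. The part of these cell types in the results was not tested.

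**Figure D5:**
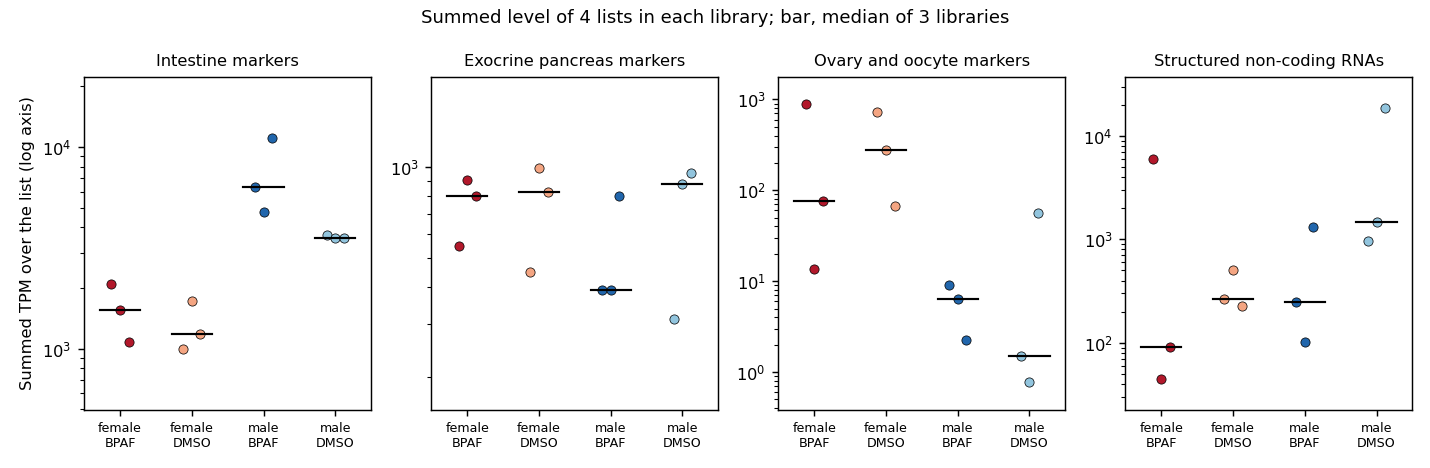
Summed TPM (log axis) of 4 lists in each library, with the group median as a bar. Intestine markers are higher in all 3 BPAF males than in all 3 DMSO males and overlap in females, pancreas markers overlap in both sexes, and the structured non-coding RNAs reach 18517 TPM in 1 DMSO male and 6025 TPM in 1 BPAF female.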

How the data were processed

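RNA sequencing values of 12 liver libraries were used as deposited by the authors. The deposited table was taken as TPM, since its header names no unit and each column sums to between 978505 and 992375, and the sequencing depth is unknown. The submitters' processing notes name RSEM, Cufflinks and HISAT2 2.1.0, and RNA was isolated with TRIzol for an Illumina TruSeq kit per the labels' protocols. A genome build, an annotation version and the use of strand were not given in the sources used here.

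Values were tested as log2(TPM + 1), a pseudocount of 1, with limma 3.58.1 in R 4.3.3: a mean per group over 12 libraries, 8 residual degrees of freedom, an intensity trend, and Benjamini-Hochberg adjustment over 11389 genes, called at an adjusted p under 0.05. Fold changes on this scale understate the change of low genes. The difference tested was (female BPAF minus female DMSO) minus (male BPAF minus male DMSO). Groups came from the sex, treatment and replicate labels. Same-numbered libraries had residual correlations of 0.33, 0.35 and 0.38 in males and 0.23, 0.05 and 0.10 in females, so pairing by number was seen in males only. No fit paired the males alone. The main fit used no block, so it ignored this pairing, and the replicate block within each sex covered both sexes.

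The members and gene lists were chosen with earlier results of these data known. Named genes are those called in either sex or in the difference, up to 10 per direction with the smallest p, up to 5 per opposite pattern, a panel of 20 genes and the smallest p of each pathway list. Other genes shown as members of a list or marker set were chosen after their values were seen. Symbols are those of the file, and 29201 of 32520 identifiers had a row in the name table. The alternatives tried were other pseudocounts, filters, scalings, weights, priors and blocks, and leaving out each library. The authors' 4 group means were not used here, and 1 intestine marker is not reported here by name.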

Additional observations from a re-analysis of the deposited data

How the results depend on the processing

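The count of called differences between the sexes, 0 in the test as described, was 1 with a pseudocount of 0.1 TPM (FO704772.1) and 1 with 5 TPM (CR788316.1). Both genes passed the filter through the group where they were high. The count was 12 with no filter, and 0 to 1 with single libraries left out (1 without female BPAF 3). The other alternatives gave 0. With a replicate block over all libraries or within each sex it was 0, and the genes at an unadjusted p under 0.05 were 60 higher and 428 lower, and 75 and 578, against 46 and 322 with no block. The female count of 0 was 3 with no filter and 0 otherwise. The male count of 6 was 1 with a pseudocount of 0.1 TPM, 10 with 5 TPM, 73 with no filter, 1 with a filter at 5 TPM, 1 after scaling by trimmed means, 1 after quantile normalization, 3 with vitellogenins left out, 1 with a replicate block over all libraries and 2 with one within each sex. It ran from 0 to 5 with single libraries left out, and was 0 without male DMSO 1 or male DMSO 2. The all-gene median of -0.25 was 0.013 after scaling by trimmed means and 0.0071 after quantile normalization, and -0.35 to -0.10 with single libraries left out.

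Of 1599 values of 72 named genes, 36 values of 12 genes, none of them called, changed sign. After scaling by trimmed means cpt1aa was 0.094 and apoa1b 0.32, and after quantile normalization cpt1aa was 0.064. With array quality weights cpt1aa was 0.22, cyp2k22 -0.21, fabp10a -0.35, fasn -0.37 and vtg5 -0.89. With a pseudocount of 0.1 TPM cyp2k22 was -0.33 and esr1 -0.093, and with 5 TPM vtg5 was -0.031. With single libraries left out the range was -0.24 to 2.44 for gck, -0.074 to 1.04 for vtg2, -1.66 to 0.17 for hamp, -0.59 to 0.29 for cpt1aa, -0.31 to 0.83 for cyp2k22, -0.38 to 2.31 for hspa5, -1.94 to 0.79 for cyp7a1, -0.39 to 0.45 for fabp10a, -1.05 to 1.27 for fasn, -0.042 to 0.20 for esr1, -0.24 to 0.11 for apoa1b and -0.94 to 0.90 for vtg5. Why values moved was not tested. The libraries number 3 a group, and depth is unknown, so no limit is given for genes listed at 0.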

Other observations

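Structured non-coding RNAs, such as copies of 5S and 5.8S ribosomal RNA, the U2 spliceosomal RNA and the RNase P RNA rpph1, were not in the lists and were grouped after the values of FO704772.1 were seen. Of 2685 listed genes, 2571 were at 0 in all libraries and 38 passed the filter, which a gene could pass through the group where it was high. Of those 38, 33 had a positive female minus male response, with a median of 2.06 (0.16 in females and -1.63 in males), and 9 had an unadjusted p under 0.05, among the 46 such genes over the whole table. These counts describe a group chosen for 1 of its members and support nothing.

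The summed TPM of the 2685 genes was 6025, 45.04 and 90.46 in BPAF females, 262.7, 506.6 and 225.3 in DMSO females, 250.5, 100.7 and 1327 in BPAF males and 970.4, 1480 and 18517 in DMSO males. BPAF female 1 and DMSO male 3 stood far above the other libraries of their sex. These libraries were also the highest of their sex for smpdl3a, roraa and gpr84, but not both for EIF3J, dnd1, crabp1a or soga3a. With single libraries left out the difference ran from 3.52 to 4.63 for smpdl3a, 3.62 to 5.39 for roraa and 3.28 to 5.60 for gpr84. A link was not tested. For rpph1, BPAF females had 63, 2.5 and 1.25 TPM, DMSO females 3.99, 1.17 and 1.21 TPM, BPAF males 2.48, 1.47 and 7.29 TPM and DMSO males 8.82, 41.8 and 276.16 TPM. Its difference was 5.02 ± 1.80 (SE; limma adjusted p = 0.995). How the reads of such RNAs, which often have no poly(A) tail and many near-identical copies, entered the libraries or were counted was not tested.

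The acute phase gene saa had the highest positive difference of the plasma protein list, 2.82, with a female response of 2.32 and a male response of -0.50, and an unadjusted p of 0.223. The apolipoprotein gene apoea had the lowest difference of the hepatocyte markers, -4.43, with a female response of -1.06 and a male response of 3.37, and an unadjusted p of 0.124. Neither difference passed the test.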
